A study of Homo sapiens with 27 samples.

Results

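Protein phosphatase 1 is a serine/threonine phosphatase built from a catalytic subunit and 1 of many regulatory subunits. The catalytic subunit (PPP1CA, PPP1CB or PPP1CC) removes phosphate, and the regulatory subunit sets where the enzyme sits, which substrates it reaches or whether it is active. The set described here held 8 genes. It was chosen by the signal of PPP1R2, whose isoforms changed strongly with SRSF1 siRNA in these same data, and the other genes were added as subunits of the same enzyme. They were PPP1R2 (ENSG00000184203), PPP1CA (ENSG00000172531), PPP1CB (ENSG00000213639), PPP1CC (ENSG00000186298), PPP1R7 (ENSG00000115685), PPP1R8 (ENSG00000117751), PPP1R10 (ENSG00000204569) and PPP1R12A (ENSG00000058272). PPP1R10, a nuclear regulatory subunit, was not analysed here, which left 7 of the 8 genes, out of 16733 genes in all.

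The RNA came from A549, an established human lung adenocarcinoma line, and was hybridized to Affymetrix HTA 2.0 arrays, whose probes cover exons as well as exon-exon junctions. One group was transfected with an siRNA against SRSF1, an SR protein that binds exons and promotes their use in splicing. The other groups were cells given scramble siRNA, which targets no gene by design, and cells that received Lipofectamine, the transfection reagent, with no siRNA. Each condition had 3 samples with 3 hybridizations each, 27 in all, and the hybridizations of a sample were averaged unless said otherwise. Each SD is over the 3 samples of a condition, except where it is said to be among hybridizations. In the main fits, standard errors and p-values come from all 9 samples, with a spread shared across conditions. All conditions used a single cell line, and as the RNA is from bulk cultures, less RNA per cell and fewer cells with the RNA cannot be told apart.

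A splicing event is a place where transcripts take either of 2 paths. Path 1 is the longer path in the genome, path 2 is the alternative, and the reference path is shared by both. The signal of each is in log2 units, so a difference of 1 is a doubling, and as probes differ in brightness, levels were compared between conditions and never between paths or genes. Event types and positions were not given in the sources used here for these genes, so events are named by their number in the table. The 27 hybridizations had median signals of 6.23 to 6.33 and correlated pairwise at 0.957 or more.

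The 7 genes held 37 of the 73554 events. PPP1CC had 11 events, PPP1R7 had 7, PPP1CB and PPP1R12A had 5 each, PPP1R8 had 4, PPP1R2 had 3 and PPP1CA had 2. The events of a gene overlap and some share a probe set, so the 37 events rest on 92 distinct probe sets. An event was tested where all of its paths exceeded a log2 signal of 5.77 in at least 1 sample, which 16 of the 37 events did (43.2%, against 35.1% of all events). Of the 21 left out, 8 failed for path 1 alone, 12 for path 2 alone and 1 for another combination, so for most of them 1 path was dim in all samples while the others were measured.

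PPP1R2 encodes inhibitor-2, which binds the catalytic subunit and blocks its activity. With SRSF1 siRNA the signal of PPP1R2 was higher on path 2 and lower on path 1 of its event 4. In SRSF1 siRNA cells path 2 was at 7.51, 7.37 and 7.58, against 5.51, 5.56 and 5.48 in scramble siRNA cells and 5.66, 6.10 and 5.85 in Lipofectamine cells. Path 1 went the other way, at 8.09, 8.10 and 8.14 in SRSF1 siRNA cells, 8.95, 9.10 and 8.93 in scramble siRNA cells and 8.85, 8.83 and 8.71 in Lipofectamine cells. On both paths the SRSF1 siRNA samples lay apart from the samples of both controls.

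The change of SRSF1 siRNA over scramble siRNA was 1.97 for path 2 and -0.88 for path 1 (log2, SE 0.08 each), a 3.92-fold higher and a 1.84-fold lower signal. Over Lipofectamine the changes were 1.62 and -0.68. The reference path of the event also fell, by changes of -0.61 over scramble siRNA and -0.49 over Lipofectamine. Each was a smaller fall than that of path 1. The signal of path 2 minus that of path 1 averaged -0.62 ± 0.09 in SRSF1 siRNA cells, -3.48 ± 0.06 in scramble siRNA cells and -2.92 ± 0.24 in Lipofectamine cells (log2, SD, n = 3 each). As the gene was chosen for this contrast, these values are a description and carry no test. Path 2 exceeded the threshold of 5.77 in all 3 SRSF1 siRNA samples, in none of the scramble siRNA samples and in 2 of the Lipofectamine samples.

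**Figure D1:**
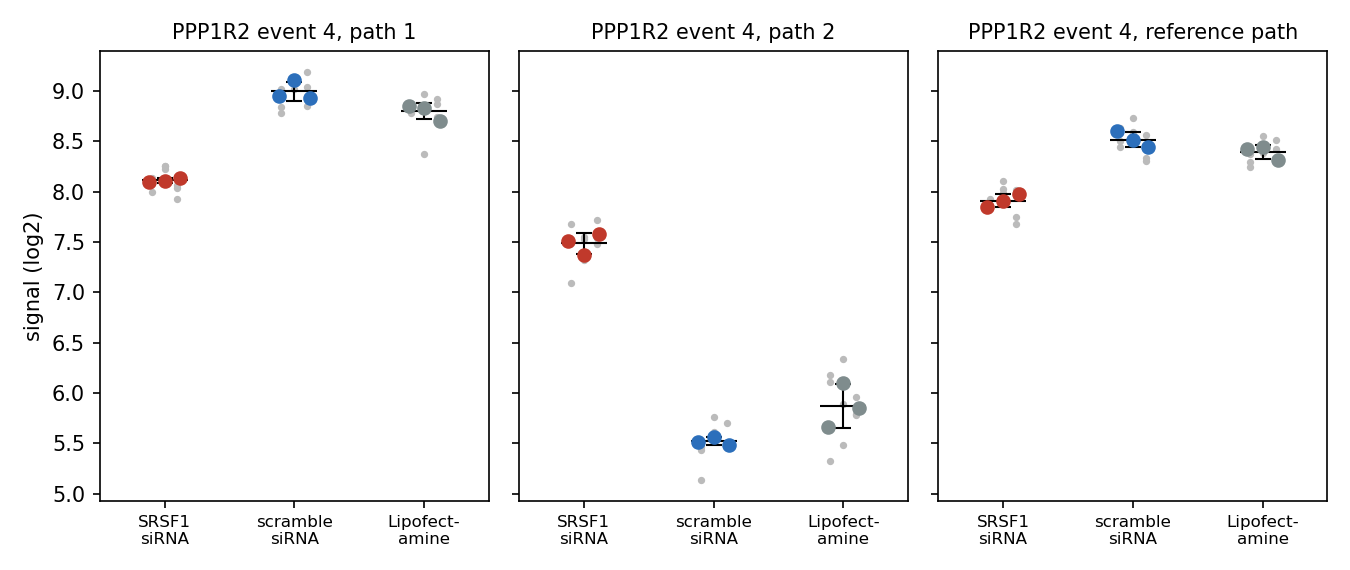
Signal (log2) of the 3 paths of PPP1R2 event 4 by condition. Coloured points are the 3 samples of a condition, small grey points the single hybridizations, and black bars the mean ± SD over samples. On path 2 the SRSF1 siRNA samples sit between 7.37 and 7.58, above all others, and on path 1 and the reference path they sit below all others.

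The hybridizations are technical repeats whose averages are the sample values above. The 9 hybridizations of SRSF1 siRNA cells put path 2 between 7.09 and 7.72, those of scramble siRNA cells between 5.13 and 5.76 and those of Lipofectamine cells between 5.33 and 6.34. The mean SD among hybridizations of a sample was 0.18, 0.18 and 0.30 in that order, above the SD of 0.10, 0.04 and 0.22 between samples. Among the 25805 events tested, event 4 was in place 18 by the smaller of its opposite changes and in place 90 by the size of the change of path 2.

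The rest of PPP1R2 was lower in signal. The reference path of event 4 was at 7.85, 7.91 and 7.97 in SRSF1 siRNA cells, 8.60, 8.51 and 8.45 in scramble siRNA cells and 8.42, 8.45 and 8.31 in Lipofectamine cells. The level of the gene, taken as the mean of its reference paths, was 8.04 ± 0.05 in SRSF1 siRNA cells, 8.67 ± 0.06 in scramble siRNA cells and 8.54 ± 0.03 in Lipofectamine cells (log2, SD, n = 3 each). PPP1R2 had 9 path entries on 7 distinct probe sets, of which 5 exceeded the threshold. Of these 5, path 2 of event 4 had the positive change over scramble siRNA, and the other 4 lay between -0.88 and -0.57.

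Events 2 and 3 of PPP1R2 were not tested. Path 1 of event 2 was dim, at 2.63, 2.88 and 2.91 in SRSF1 siRNA cells, 3.32, 3.15 and 3.01 in scramble siRNA cells and 2.96, 3.10 and 2.04 in Lipofectamine cells. Path 1 of event 3 stayed between 4.79 and 4.92 in all 9 samples. Path 2 of event 2 is the probe set that serves as path 1 of event 4, and events 3 and 4 share a reference path, so their values repeat those above. The authors kept probes that matched up to 3 genes, and the RefSeq table lists 7 pseudogenes and 2 coding copies of PPP1R2. Their part in the PPP1R2 signals was not tested.

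Between the controls, PPP1R2 event 4 leaned the opposite way. Scramble siRNA over Lipofectamine changed path 2 by -0.35 and path 1 by 0.20 (log2, SE 0.08), and the samples of the controls did not overlap on either path. The event did not pass in the main fit, which leaves out the sample number (limma, adjusted p = 0.0519). With the sample number as a replicate block it did (limma, adjusted p = 0.0396). The scramble siRNA samples serve in this comparison and in the one that chose the gene, so these p-values are not independent of the choice. The level of PPP1R2 differed by 0.13 (SE 0.05, limma, adjusted p = 0.0858).

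The genes whose path usage most resembled that of PPP1R2 event 4 were found by Pearson's r of path 1 minus path 2 over the 9 samples, among the 25804 tested events of other genes. The closest were 2 events of ENSG00000135720, with r of 0.998 each, and an event of ENSG00000173706, with r of 0.996. Over scramble siRNA path 2 changed by 1.75 in both events of the first gene, and by 1.25 in that of the second (log2). Path 1 did not fall in the first gene, with a change of 0.10 in both events, and changed by -0.43 in the second. Many events had a high r, and an event of SUPT16H with r of 0.953 was in place 995 by absolute r. The 9 points fall into SRSF1 siRNA samples and controls, which lie apart on both measures.

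No tested event of the other 6 genes had opposite path changes as large as those of PPP1R2 event 4. PPP1R2 was chosen by its change in this contrast, so that order was set by the choice and is not a result. Of the 15 events tested in those 6 genes, 1 passed in SRSF1 siRNA over scramble siRNA (6.67%), against 8.35% of all events tested, a share near the background. The same single event was under 0.05 before adjustment. It was event 2 of PPP1R7, which encodes SDS22, a leucine-rich repeat protein that binds the catalytic subunit. Path 2 of that event was at 7.23, 7.51 and 7.24 in SRSF1 siRNA cells, 6.86, 6.77 and 6.92 in scramble siRNA cells and 6.73, 6.96 and 6.75 in Lipofectamine cells. Path 1 was at 10.49, 10.32 and 10.54 in SRSF1 siRNA cells, against 10.62, 10.55 and 10.62 in scramble siRNA cells and 10.76, 10.47 and 10.60 in Lipofectamine cells.

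The SRSF1 siRNA samples were thus apart from the controls on path 2 of PPP1R7 event 2 and, on path 1, below the scramble siRNA samples while overlapping the Lipofectamine samples. The changes over scramble siRNA were 0.48 for path 2 and -0.15 for path 1 (log2, SE 0.09, limma, adjusted p = 0.036 for the event), and over Lipofectamine 0.51 and -0.16. The reference path of the event changed by -0.29 over scramble siRNA and by -0.20 over Lipofectamine. Path 1 thus fell less than the path shared by both. The test sums the one-sided p-values for opposite changes, and the paper requires both to be extreme for a significant result. The weaker change therefore sets most of the sum, and for this event it was that of path 1. When the larger p-value was used in place of the sum, the event had an adjusted p of 1 (limma). It lost the call without SRSF1 siRNA replicate 2, scramble siRNA replicate 1 or scramble siRNA replicate 3, with limma adjusted p-values of 0.277, 0.127 and 0.0862. It also lost the call with no filter (limma, adjusted p = 0.0603) and with hybridization 1 or hybridization 3 alone (0.442 and 0.797).

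**Figure D2:**
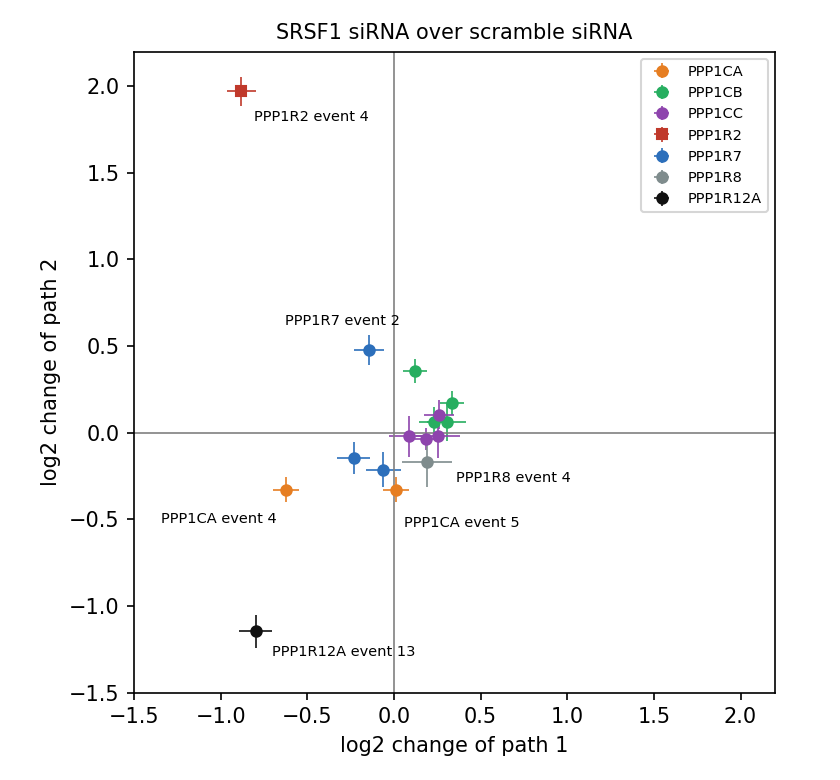
Change of path 1 (horizontal axis) and of path 2 (vertical axis) for the 16 events that passed the filter (15 of them tested here), SRSF1 siRNA over scramble siRNA, in log2 units, with bars of 1 SE. Points in the upper left quadrant were lower in signal on path 1 and higher on path 2. The changes are not relative to the reference path. PPP1R2 event 4 (square, not tested) lies at -0.88 and 1.97, PPP1R7 event 2 at -0.15 and 0.48, and PPP1R12A event 13 at -0.80 and -1.15 in the quadrant where both paths were lower.

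At the level of whole genes, SRSF1 siRNA lowered PPP1CA, PPP1R7 and PPP1R12A relative to scramble siRNA, 3 of the 6 genes tested, against 27% of all genes that were called lower. None of the 6 was called higher, against 28.1% of all genes. The median change of the 6 genes was -0.16 (log2), and that of the 10084 genes tested was 0.03.

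PPP1CA encodes the alpha catalytic subunit. Its level was 10.09, 10.20 and 10.03 in SRSF1 siRNA cells, 10.88, 10.66 and 10.63 in scramble siRNA cells and 10.95, 10.93 and 10.96 in Lipofectamine cells. The SRSF1 siRNA samples were below all controls, and the scramble siRNA samples below all Lipofectamine samples. PPP1CA changed by -0.62 over scramble siRNA (SE 0.07, limma, adjusted p = 5.07e-06), a 1.53-fold lower level, and by -0.84 over Lipofectamine.

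The paths of PPP1CA did not fall evenly. Its 2 events rest on 5 distinct probe sets, each also tested on its own, a test added after the values had been seen. Of these, 4 were lower with SRSF1 siRNA, with changes between -0.70 and -0.33. Over the whole table, 19% of probe sets were lower and 20.9% higher in this test. The fifth, path 1 of event 5, was at 6.48, 6.54 and 6.41 in SRSF1 siRNA cells, 6.48, 6.48 and 6.44 in scramble siRNA cells and 6.65, 6.55 and 6.53 in Lipofectamine cells, a change of 0.01 over scramble siRNA (SE 0.06). Neither event passed the test for opposite changes (limma, adjusted p = 1 and 0.691). An alternative test, of unequal rather than opposite changes of path 1 and path 2, called both PPP1CA events, event 13 of PPP1R12A and event 2 of PPP1R7. The share of all events that it called is not given here, so these calls have no background beside them. The paper describes this contrast as too sensitive, with many false positives, above all where isoforms are weakly expressed.

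PPP1CB and PPP1CC, the beta and gamma catalytic subunits, did not pass at the level of the gene. PPP1CB was at 9.58, 9.60 and 9.59 in SRSF1 siRNA cells, 9.47, 9.49 and 9.52 in scramble siRNA cells and 9.53, 9.48 and 9.52 in Lipofectamine cells, a change of 0.10 over scramble siRNA (SE 0.04, limma, adjusted p = 0.0553). PPP1CC was at 10.61, 10.56 and 10.53 in SRSF1 siRNA cells, 10.50, 10.43 and 10.44 in scramble siRNA cells and 10.47, 10.61 and 10.62 in Lipofectamine cells, a change of 0.11 (SE 0.05, limma, adjusted p = 0.09). For both genes the SRSF1 siRNA samples were above the scramble siRNA samples, and for PPP1CC they overlapped the Lipofectamine samples. The mean of all paths in place of the reference paths brought both under 0.05, with limma adjusted p-values of 0.00154 for PPP1CB and 0.0491 for PPP1CC, as did leaving out Lipofectamine replicate 1 (0.0474 and 0.0469). PPP1CB also passed without Lipofectamine replicate 2, at 0.0375, and with the filter at the 50% quantile, at 0.04.

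Of 13 probe sets of PPP1CB above the threshold, 4 were higher with SRSF1 siRNA and 0 lower, against 20.9% and 19% of all probe sets. The largest change was that of path 1 of event 7, at 10.16, 10.14 and 9.93 in SRSF1 siRNA cells, against 9.67, 9.65 and 9.64 in scramble siRNA cells and 9.62, 9.76 and 9.65 in Lipofectamine cells. It changed by 0.43 over scramble siRNA (SE 0.07, limma, adjusted p = 0.000756) and the groups did not overlap. Event 7 was not tested as an event because its path 2 averaged 4.66. For PPP1CC, 4 of 18 probe sets were higher and 0 lower, with called changes of 0.23 to 0.32. The share of higher ones was near the 20.9% of all probe sets. The other 5 of the 23 distinct probe sets of PPP1CC were under the threshold.

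**Figure D3:**
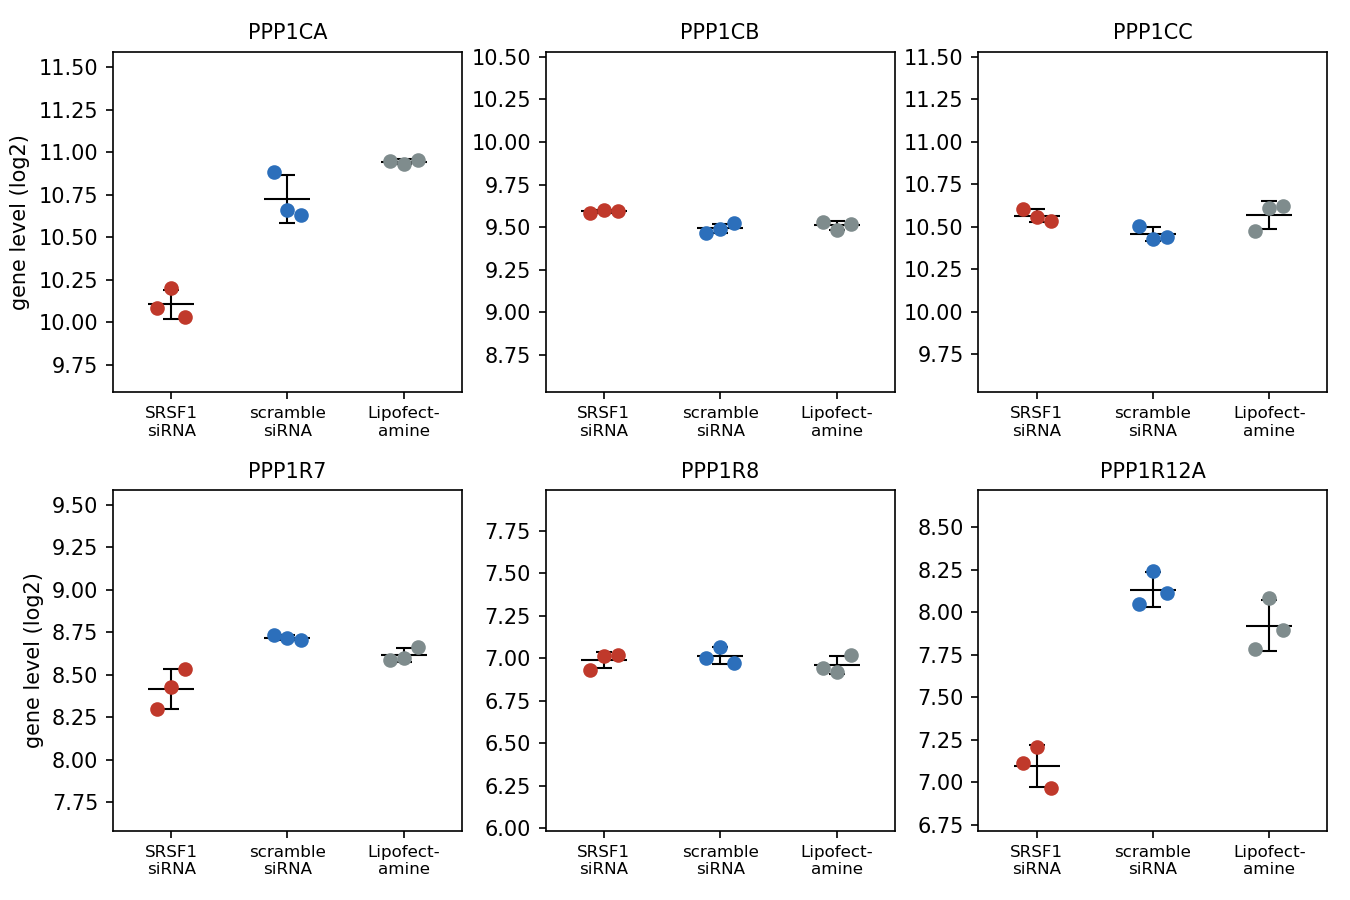
Level of the 6 genes other than PPP1R2 (log2, mean of the reference paths) by condition. Points are the 3 samples, black bars the mean ± SD, and each panel spans 2 log2 units. PPP1CA and PPP1R12A are lower in the SRSF1 siRNA samples than in all control samples, by 0.62 and 1.04 over scramble siRNA, and PPP1R8 overlaps in all conditions.

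PPP1R12A encodes MYPT1, the targeting subunit of myosin phosphatase, which brings the beta catalytic subunit to myosin. Of the 7 genes it had the largest change in level over scramble siRNA. It was at 7.11, 7.21 and 6.97 in SRSF1 siRNA cells, 8.05, 8.24 and 8.11 in scramble siRNA cells and 7.78, 8.08 and 7.90 in Lipofectamine cells. The SRSF1 siRNA samples lay below all controls. The change was -1.04 over scramble siRNA (SE 0.08, limma, adjusted p = 2.97e-07), a 2.05-fold lower level, and -0.82 over Lipofectamine.

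The lower signal of PPP1R12A was seen on every probe set above the threshold. Of its 13 distinct probe sets 9 exceeded the threshold. All 9 were lower with SRSF1 siRNA, by changes between -1.16 and -0.70, against 19% of all probe sets that were lower. The other 4 were dim in every condition. In event 13, path 1 was at 7.13, 7.04 and 6.91 in SRSF1 siRNA cells, 7.84, 7.96 and 7.68 in scramble siRNA cells and 7.28, 7.49 and 7.25 in Lipofectamine cells. Path 2 of that event was at 8.55, 8.68 and 8.43 in SRSF1 siRNA cells, 9.65, 9.75 and 9.70 in scramble siRNA cells and 9.54, 9.70 and 9.60 in Lipofectamine cells. Both paths fell in SRSF1 siRNA cells, by 0.80 and 1.15 over scramble siRNA (SE 0.09), so the event did not pass the test for opposite changes (limma, adjusted p = 1). Over Lipofectamine the changes were -0.32 and -1.06.

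PPP1R7 was lower too, at 8.30, 8.43 and 8.53 in SRSF1 siRNA cells, 8.73, 8.72 and 8.71 in scramble siRNA cells and 8.59, 8.60 and 8.66 in Lipofectamine cells. The SRSF1 siRNA samples were below all controls. PPP1R7 changed by -0.30 over scramble siRNA (SE 0.06, limma, adjusted p = 0.000592), a 1.23-fold lower level, and by -0.20 over Lipofectamine. Its size depended on the paths averaged, at -0.47 with the median of the reference paths and -0.16 with the mean of all paths, both called. Of its 16 probe sets above the threshold, 7 were lower, 1 was higher and 8 did not pass. Of all probe sets 19% were lower and 20.9% higher. The lowest change was that of path 1 of event 17, -0.63 (SE 0.09), and the one that rose was path 2 of event 2.

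PPP1R8 encodes NIPP1, a nuclear regulatory subunit that has been linked to pre-mRNA splicing. Its level was 6.93 to 7.02 in SRSF1 siRNA cells, 6.97 to 7.07 in scramble siRNA cells and 6.92 to 7.02 in Lipofectamine cells, and the conditions overlapped. The change over scramble siRNA was -0.03 (SE 0.05, limma, adjusted p = 0.659). That mean joins reference paths that differed in direction. They changed by -0.16 in event 2, 0.03 in event 4, 0.19 in event 5 and -0.17 in event 7, none of them called singly. Of 8 probe sets 2 were lower, path 1 of event 7 by a change of -0.30 and path 1 of event 2 by -0.23, a share near the 19% of all probe sets that were lower. Its single tested event, event 4, changed by 0.19 on path 1 and -0.17 on path 2 (SE 0.14, limma, adjusted p = 0.313).

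**Figure D4:**
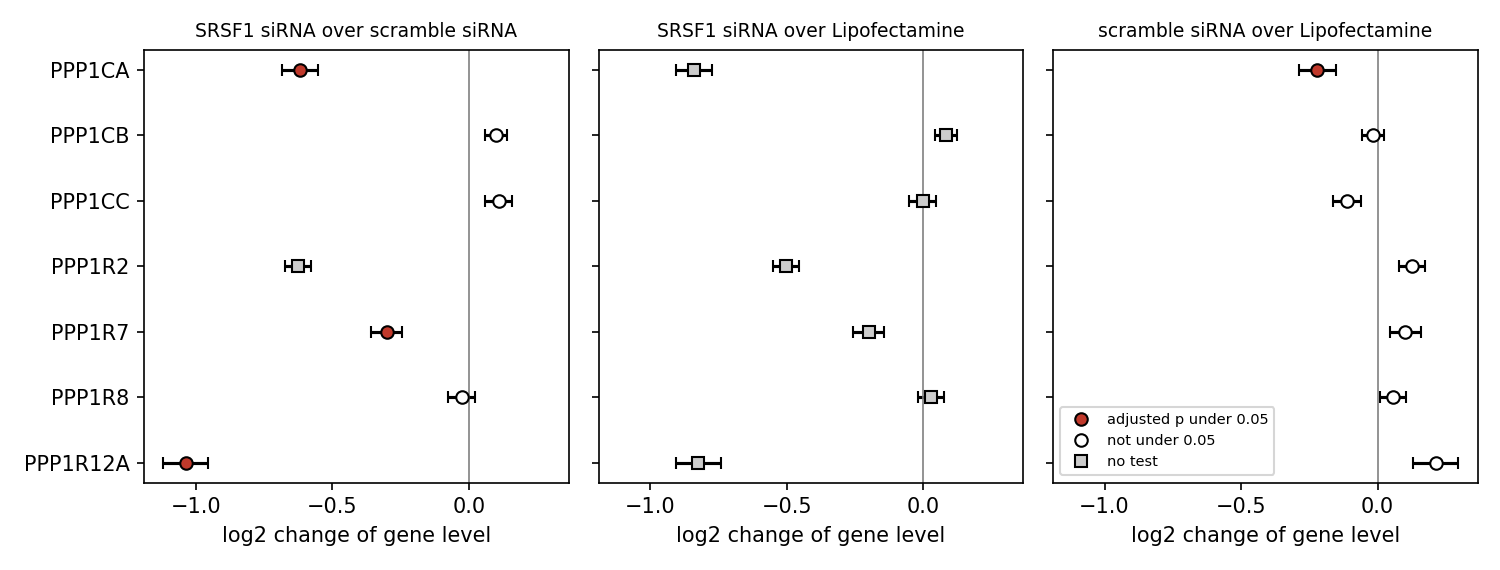
Change in gene level (log2) of the 7 genes in the 3 comparisons, with bars of 1 SE. Red points passed an adjusted p of 0.05 in limma, white points did not, and grey squares were not tested. PPP1R12A, PPP1CA and PPP1R7 passed in SRSF1 siRNA over scramble siRNA, at -1.04, -0.62 and -0.30, and PPP1CA alone passed in scramble siRNA over Lipofectamine, at -0.22.

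Over the 6 genes, 22 of 69 probe sets were lower with SRSF1 siRNA (31.9%) and 9 were higher (13%). Of all probe sets tested 19% were lower and 20.9% higher. The probe sets of a gene share its RNA and are not independent, and 9 of the 22 belong to PPP1R12A. The median change was -0.02 over the 69 and 0.05 over all probe sets (log2).

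**Figure D5:**
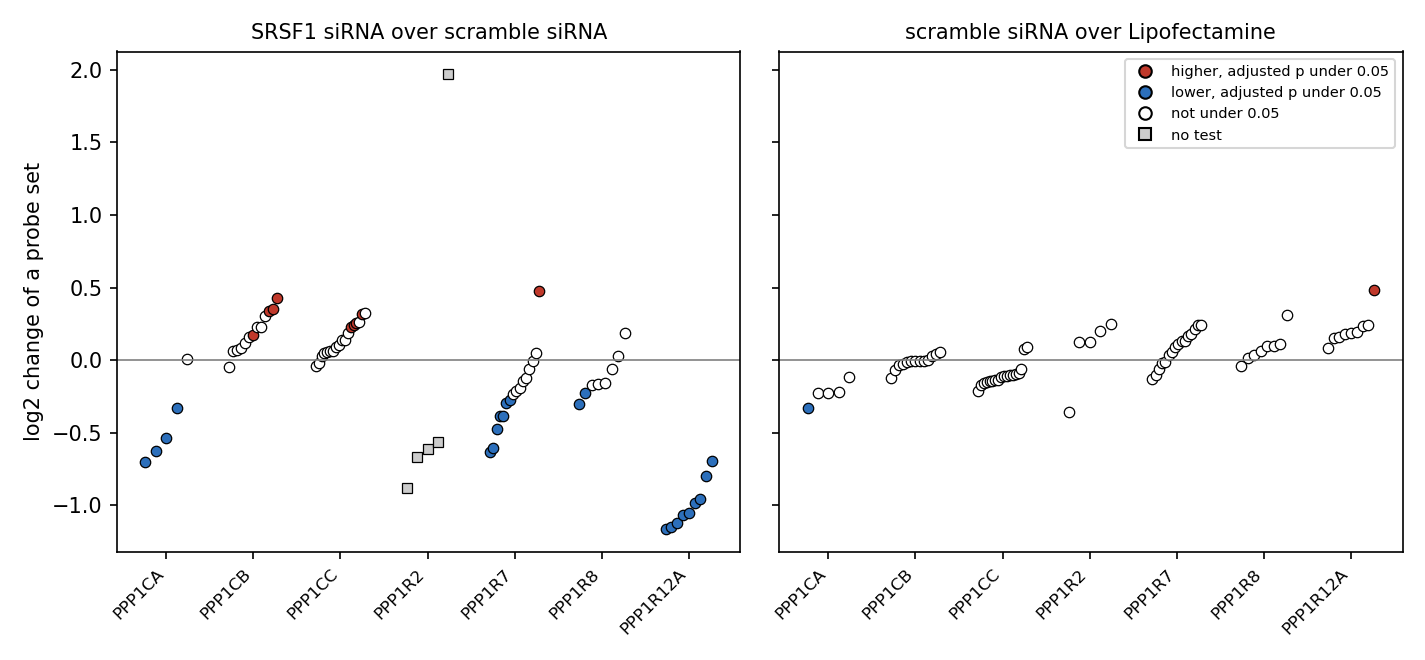
Change (log2) of each distinct probe set above the threshold, by gene, for SRSF1 siRNA over scramble siRNA (left) and scramble siRNA over Lipofectamine (right). Blue and red points passed an adjusted p of 0.05 in limma as lower and higher, white points did not pass, and grey squares were not tested. All 9 points of PPP1R12A are blue on the left, against 19% of all probe sets that were lower. On the right 2 of 74 points passed, against 4.12% lower and 4.35% higher among all probe sets.

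Scramble siRNA was compared with Lipofectamine for all 7 genes. Of 16 events 0 passed (limma), against 0.275% of all events, and 1 was under 0.05 before adjustment, PPP1R2 event 4. With the replicate block that event passed, 1 of 16, against 0.74% of all events in that fit. Its gene was chosen by a contrast with the same scramble siRNA samples, so this call is not independent of the choice. In gene level 1 of 7 genes was lower and 0 higher, against 9.38% and 11.1% of all genes. The lower gene was PPP1CA, with a change of -0.22 (SE 0.07, limma, adjusted p = 0.0342). Its call was lost without scramble siRNA replicate 2 or 3 or any 1 of the 3 Lipofectamine samples, with limma adjusted p-values between 0.0635 and 0.129. PPP1R12A was 0.21 higher and did not pass (SE 0.08, limma, adjusted p = 0.0875), and with the replicate block it passed at 0.00849, which made 1 gene lower and 1 higher, against 12.6% and 15.3% of all genes in that fit.

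Of the 74 probe sets above the threshold, 1 was lower and 1 higher in scramble siRNA than in Lipofectamine cells, against 4.12% and 4.35% of all probe sets. The lower one was path 2 of event 4 of PPP1CA, with a change of -0.33 (SE 0.07, limma, adjusted p = 0.0186). The higher one was path 1 of event 13 of PPP1R12A, with a change of 0.48 (SE 0.09, limma, adjusted p = 0.00994), while path 2 of that event changed by 0.09. With the replicate block 1 was lower and 5 were higher, against 5.31% and 6.11% of all probe sets in the same fit. The changes over scramble siRNA and over Lipofectamine share the SRSF1 siRNA samples, so neither is a check on the other.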

How the data were processed

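The authors hybridized RNA of A549 cells to HTA 2.0 arrays, mapped probes to the Ensembl transcriptome, dropped those matching more than 3 genes, grouped the rest by event path, corrected the background, quantile-normalized the arrays and obtained 1 value per path with RMA. The deposited values are log2 signals and were used as they stand; depth has no meaning for arrays, and the number of samples limits precision. Labels carry a sample number, read here as the culture, and a replicate number, read as a repeat hybridization. The labels do not settle this reading, and p-values measure only the spread between these samples.

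The 3 hybridizations of a sample were averaged and the 9 samples fitted in limma 3.58.1 under R 4.3.3. For each event its paths were fitted jointly, with a common spread. One-sided p-values for opposite changes of path 1 and path 2 were summed, referred to the triangular distribution and adjusted by Benjamini-Hochberg over the 25805 events whose paths all exceeded the 25% quantile of the reference paths (5.77), with a threshold of 0.05. Gene levels were means of reference paths, over 10084 genes with a tested event. Distinct probe sets were tested singly over the whole table, which was added after the values were seen. Steps were tested on simulated data. Figures used matplotlib 3.10.9.

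SRSF1 siRNA over scramble siRNA was tested for the genes other than PPP1R2, and scramble siRNA over Lipofectamine for all. The genes and lists were chosen with earlier results of these data known, and every member was named by rule. Same-numbered samples deviated together for scramble siRNA and Lipofectamine (correlations of 0.282, 0.287 and 0.396 across events), so the number was taken to pair those. The main fit did not use the number. Calls that changed with it as a replicate block are given beside the main ones. Of the 16733 gene IDs 0 matched the gene name table, so SRSF1 itself, cell type markers and the 2 lists of related genes were not analysed here. No probe or junction sequences were used.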

Additional observations from a re-analysis of the deposited data

How the results depend on the processing

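The number of events called among the 15 events of the 6 genes in SRSF1 siRNA over scramble siRNA was 1. It was 2 with no filter (PPP1R7 event 17 and PPP1R8 event 2), 4 with a contrast on the difference of path changes, and 0 with the larger one-sided p, with hybridization 1 alone or with hybridization 3 alone. The shares of all events called in these settings are not given here. It ranged from 0 to 2 when 1 sample was left out. For scramble siRNA over Lipofectamine it was 0, and it was 1, PPP1R2 event 4, with the filter at the 50% quantile, the difference of path changes, each of the 27 hybridizations as an array, the label's replicate number as the biological replicate, or the replicate block. It was 0 to 1 with a sample left out. The scramble siRNA samples also served in the choice of PPP1R2, so calls of its event are not independent of that choice. Genes called in SRSF1 siRNA over scramble siRNA numbered 3, but 4 with the filter at the 50% quantile and 5 with the 27 hybridizations as arrays, with the label's replicate number as biological replicate and with the mean of all paths, and 3 to 5 with a sample left out. In scramble siRNA over Lipofectamine 1 gene was called, against 0 with no filter or any single hybridization, 3 with the 27 arrays, 4 with the label's replicate number, 2 with the replicate block or the mean of all paths, and 0 to 1 with a sample left out. Probe sets called numbered 31 and 2. With hybridization 1 alone they were 20 and 0, and the second count was 1 and 0 with hybridizations 2 and 3, 18 with the 27 arrays, 15 with the label's replicate number and 6 with the replicate block. With a sample left out the counts were 26 to 36 and 1 to 5. Shares of all events, genes and probe sets are given above for the main fit. They are also given for the replicate block in scramble siRNA over Lipofectamine. For the other settings they are not given, so those counts have no background beside them. The calls of PPP1CA, PPP1R7 and PPP1R12A as lower with SRSF1 siRNA held in all 20 alternatives run for each. With a sample left out the change of PPP1R8 with SRSF1 siRNA ranged from -0.048 to 0.00077. It turned to 0.0014 with hybridization 2 alone and was positive without SRSF1 siRNA replicate 1, and PPP1CB turned in scramble siRNA over Lipofectamine to 0.016 with hybridization 2 alone, none of them called. The level change of PPP1R2 with SRSF1 siRNA was -0.29 with the mean of all paths, which includes path 2 of event 4. The cause of the other differences was not tested. For SRSF1 siRNA and scramble siRNA the same-numbered samples deviated together at correlations of 0.13, 0.10 and 0.04 across events, where 3 of 3 SRSF1 siRNA and 2 of 3 scramble siRNA samples correlated best with their own number. With 1 of the 3 under 0.1, the number was not taken to pair these conditions. SRSF1 siRNA and Lipofectamine samples correlated at 0.19, 0.11 and 0.17, each best with its own number. The replicate block changed no call of a gene or named event in SRSF1 siRNA over scramble siRNA.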
